A study of Mus musculus with 7 samples.

Results

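A set of 10 genes that govern apoptosis and survival was followed in mouse bone marrow-derived macrophages with and without Tgm2, at rest and after lipopolysaccharide (LPS). They were taken by name from the 23337 genes of the deposited tables: the Bcl2a1 copies Bcl2a1a, Bcl2a1b and Bcl2a1d, then Bcl2l1 and Mcl1, the BH3-only genes Bcl2l11, Pmaip1 and Bbc3, and the caspase regulators Cflar and Birc3. All 10 were measured, and all 10 passed the filter on low values (a mean of at least 1 TPM, a length-scaled share of transcripts). Bone marrow from male mice aged 6 to 8 weeks was grown with M-CSF at 25 ng/ml for 7 days, which yields macrophages, and total RNA was sequenced in bulk. The 7 libraries were KO LPS (Tgm2 KO, then LPS at 10 ng/ml for 6 hours, 2 libraries), WT LPS (wild type with the same LPS treatment, 2 libraries), KO M0 (Tgm2 KO without LPS, 1 library) and WT M0 (wild type without LPS, 2 libraries). The labels give the mutant only as Tgm2 KO, without its allele, and name no animal or culture for each library. The p-values below reflect only the spread among these libraries, which may be technical.

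Cells live or die in the mitochondrial pathway by a balance within the Bcl2 family. Pro-survival members (Bcl2a1, also called A1 or Bfl-1, Bcl-xL from Bcl2l1, and Mcl1) hold the pore formers Bax and Bak in check, and BH3-only proteins (Bim from Bcl2l11, Noxa from Pmaip1, Puma from Bbc3) release them. Outside the mitochondrion, c-FLIP from Cflar blocks caspase-8 at death receptors and cIAP2 from Birc3 ubiquitinates receptor complexes that signal through NF-kappaB. Toll-like receptor signalling in macrophages is known to induce Bcl2a1, Cflar and Birc3 through NF-kappaB.

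The checks of the libraries bear on the comparisons below. Tgm2 held 19.4 and 19.2 TPM in KO LPS, 233 and 199 TPM in WT LPS, 50.7 TPM in KO M0, and 433 and 368 TPM in WT M0. All libraries are labelled male, but Xist, the RNA of the silenced X chromosome, reached 47.2 and 55.4 TPM in WT LPS and at most 0.00535 TPM in the other 5 libraries. The Y-linked gene Ddx3y averaged 41.8 TPM in KO LPS, 21.9 TPM in WT LPS, 56.4 TPM in KO M0 and 41.1 TPM in WT M0. Eif2s3y, also Y-linked, averaged 67.9 TPM in KO LPS, 35.0 TPM in WT LPS, 78.3 TPM in KO M0 and 67.1 TPM in WT M0. Kdm5d and Uty were likewise lowest in WT LPS, at means of 4.21 and 4.76 TPM. Both libraries labelled WT LPS therefore held Xist together with reduced Y-linked RNA, which goes against their sex label. The origin of this was not tested. KO LPS against WT LPS, WT LPS against WT M0 and the interaction cannot be computed without those libraries. KO LPS against KO M0 does not use them, and with both left out of the fit it still had 5 genes higher and 3 lower. The 7 macrophage markers measured (Csf1r, Cd68, Itgam, Lyz2, Mertk, Fcgr1 and Cd14) were all at 1 TPM or more and summed to 37709 to 38996 TPM in KO LPS, 37308 to 40405 TPM in WT LPS, 48478 TPM in KO M0 and 45819 to 50199 TPM in WT M0. A sum of 7 neutrophil markers was 58.6 to 65.9 TPM in KO LPS, 91.4 to 92.0 TPM in WT LPS, 17.0 TPM in KO M0 and 13.2 to 16.1 TPM in WT M0, nearly all of it Mmp8 and Camp, while Cxcr2 was at 0 in all 7 libraries and Mpo, Elane, Ltf and Ngp did not exceed 0.208 TPM. Stromal markers (6 genes) summed to 25.4 to 30.5 TPM in KO LPS, 21.3 to 23.3 TPM in WT LPS, 24.4 TPM in KO M0 and 31.4 to 43.9 TPM in WT M0, but their make-up differed between groups. Col1a1 was at 1.18 and 1.56 TPM in KO LPS, 0 in both WT LPS libraries, 10.4 TPM in KO M0, and 13.2 and 18.6 TPM in WT M0, and passed in KO LPS against WT LPS and in the interaction (limma, adjusted p = 0.00920 and 0.0460). Pdgfrb was at 27.7 and 19.9 TPM in KO LPS, 18.2 and 21.2 TPM in WT LPS, 1.93 TPM in KO M0, and 1.81 and 2.29 TPM in WT M0. Dendritic markers (7 genes) summed to 4.13 TPM in both KO LPS libraries, 1.48 to 2.95 TPM in WT LPS, 1.27 TPM in KO M0 and 1.70 to 1.89 TPM in WT M0, and mast cell and basophil or lymphocyte markers to at most 1.13 TPM in any library. The part of these markers in the results was not tested. In bulk RNA, fewer cells of a type and less RNA per cell cannot be told apart.

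The Bcl2a1 copies are the largest part of what follows, and their sequences show why their separate values are uncertain. They lie on chromosome 9 at chr9:88723288-88731850 (Bcl2a1d, minus strand), chr9:88956920-88962416 (Bcl2a1a, plus strand) and chr9:89199273-89207838 (Bcl2a1b, plus strand) in GRCm38.p6 (RefSeq), with gaps of 225 and 237 kb between them. Each has a coding sequence of 516 bases. Bcl2a1a and Bcl2a1b share 97.9% of bases, Bcl2a1a and Bcl2a1d 98.6%, and Bcl2a1b and Bcl2a1d 98.8%. Of the 12 positions at which the coding sequences differ, 7 fall in the first 150 bases. These are shown 5′ to 3′ on the coding strand, with capitals at the differing positions:
Bcl2a1a: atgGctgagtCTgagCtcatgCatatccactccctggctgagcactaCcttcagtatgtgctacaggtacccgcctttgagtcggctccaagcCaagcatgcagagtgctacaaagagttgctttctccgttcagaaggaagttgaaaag
Bcl2a1b: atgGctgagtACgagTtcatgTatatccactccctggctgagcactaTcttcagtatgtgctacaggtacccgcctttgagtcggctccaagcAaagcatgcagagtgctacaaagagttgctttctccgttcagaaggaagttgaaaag
Bcl2a1d: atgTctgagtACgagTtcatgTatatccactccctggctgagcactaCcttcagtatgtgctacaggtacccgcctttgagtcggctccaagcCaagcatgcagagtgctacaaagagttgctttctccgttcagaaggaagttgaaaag
Over the whole transcript, 31.0% of the 50-base windows of Bcl2a1a, 42.4% of those of Bcl2a1b and 20.5% of those of Bcl2a1d occur in that copy alone. With 150-base windows these shares are 71.8%, 85.8% and 69.7%. A read from a shared stretch cannot be assigned to a copy by its sequence, and no source used here gives the read length or how such reads were handled. Values are therefore given for each copy and for their sum. The fourth copy, Bcl2a1c (chr9:114330135-114330578), was listed at 0 in all 7 libraries.

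The stretch before the start site is also nearly shared, and is shown for the 3 copies. Its part in their values under LPS was not tested, and the copies share reads to an unknown extent. The aligned stretch covers chr9:88956714-88956919 for Bcl2a1a (plus strand), chr9:89199023-89199228 for Bcl2a1b (plus strand, ending 45 bases before its annotated start) and chr9:88731851-88732050 for Bcl2a1d (minus strand). Capitals mark the 9 of 206 aligned positions that differ, 6 of them bases absent from Bcl2a1d:
Bcl2a1a: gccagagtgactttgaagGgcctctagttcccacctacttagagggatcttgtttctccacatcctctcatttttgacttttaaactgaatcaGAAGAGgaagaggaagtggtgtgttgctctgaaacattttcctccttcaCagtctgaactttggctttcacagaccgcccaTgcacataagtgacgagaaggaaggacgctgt
Bcl2a1b: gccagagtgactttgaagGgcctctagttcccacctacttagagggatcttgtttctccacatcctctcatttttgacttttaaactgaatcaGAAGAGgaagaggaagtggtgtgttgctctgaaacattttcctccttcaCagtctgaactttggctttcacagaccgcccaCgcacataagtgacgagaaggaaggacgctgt
Bcl2a1d: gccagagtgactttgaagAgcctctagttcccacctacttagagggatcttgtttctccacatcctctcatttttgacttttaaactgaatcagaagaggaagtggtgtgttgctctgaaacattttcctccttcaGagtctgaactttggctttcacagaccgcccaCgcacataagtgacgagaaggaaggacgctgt
In windows of 300 bases around annotated starts (RefSeq, both strands searched), all 3 copies hold the AP-1 letters TGANTCA, at -120 in Bcl2a1a, -164 in Bcl2a1b and -114 in Bcl2a1d. They also hold the PU.1-type letters GAGGAAGTG, at -104, -148 and -104. AP-1 is a stimulus-induced factor and PU.1 is a macrophage lineage factor. The letters occur in 7.81% (AP-1) and 1.57% (PU.1) of 32851 promoter windows of the same length. The standard kappaB consensus, present in 8.46% of windows, was found in windows of Bcl2l1 and Bbc3. It was not found in those of the Bcl2a1 copies, Mcl1, Cflar, Birc3 or Bcl2l11. Bcl2l1 and Bbc3 have 3 windows each, Bcl2l11 has 2, Pmaip1 has 0 and the others have 1. The share per window is therefore not a share per gene, and sites outside the windows were not searched. A match is a description of letters, not of binding.

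**Figure D1:**
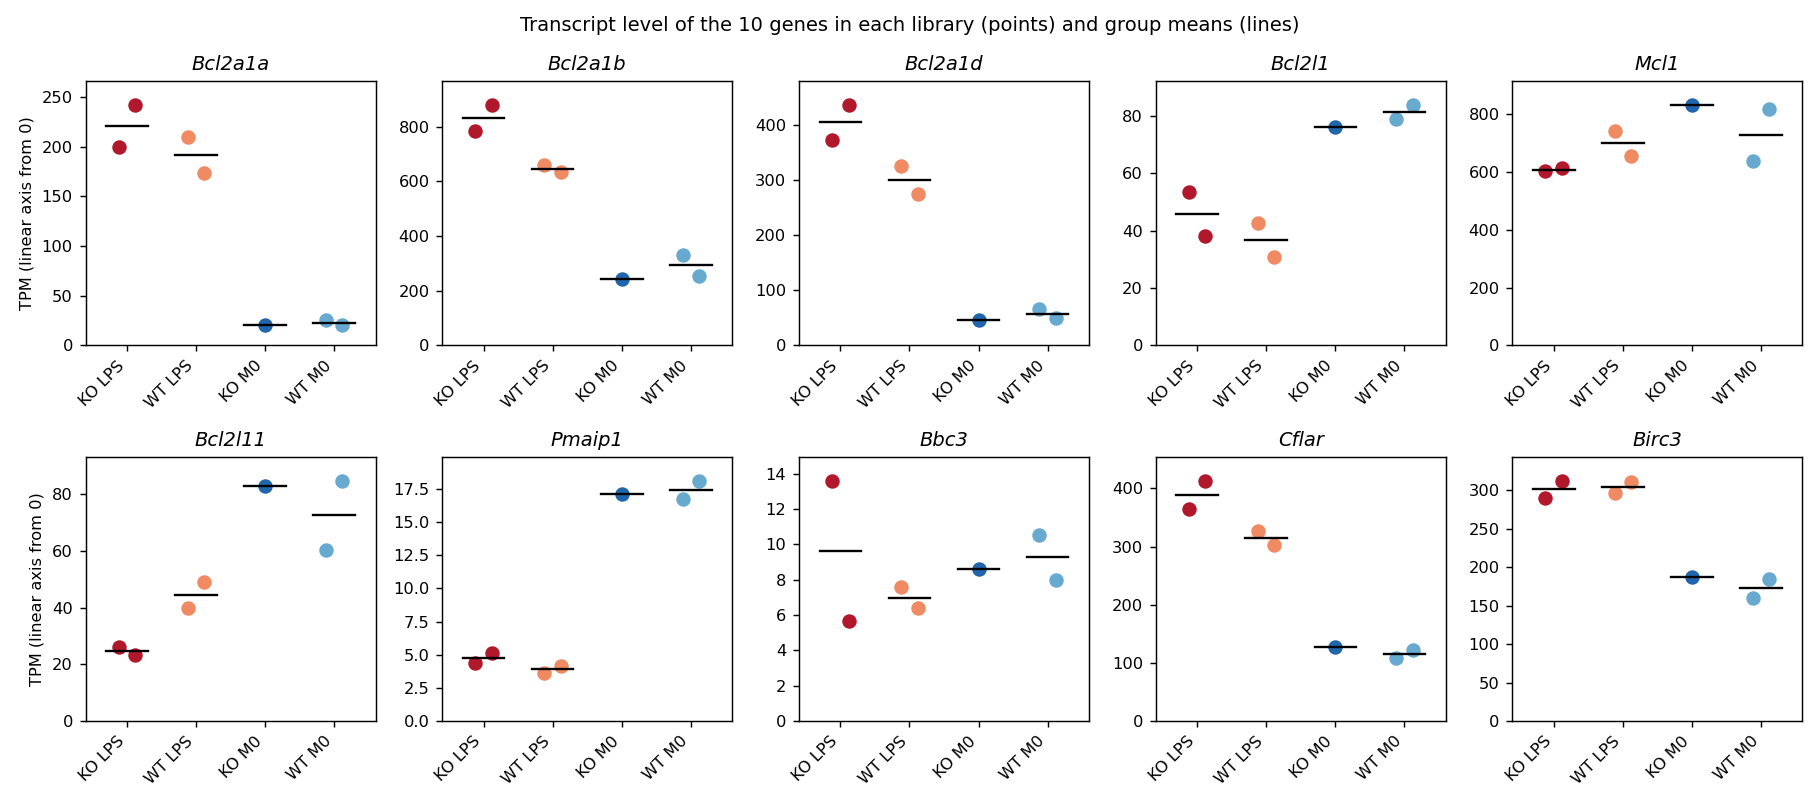
TPM (linear axis from 0) of each of the 10 genes in each library (points), grouped as KO LPS, WT LPS, KO M0 and WT M0, with group means as lines. The LPS libraries sit above the M0 libraries for the Bcl2a1 copies, Cflar and Birc3 and below them for Bcl2l1, Bcl2l11 and Pmaip1.

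Under LPS, the Bcl2a1 copies rose in both genotypes. Bcl2a1a was at 200 and 242 TPM in KO LPS, 210 and 174 TPM in WT LPS, 20.9 TPM in KO M0, and 25.5 and 20.3 TPM in WT M0. Bcl2a1b was at 784 and 879 TPM in KO LPS, 658 and 633 TPM in WT LPS, 242 TPM in KO M0, and 330 and 255 TPM in WT M0. Bcl2a1d was at 374 and 437 TPM in KO LPS, 326 and 275 TPM in WT LPS, 46.3 TPM in KO M0, and 66.0 and 49.5 TPM in WT M0. Every LPS library exceeded every M0 library for each copy. On the log2(TPM + 1) scale used throughout, which understates changes of low genes, KO LPS exceeded KO M0 by 3.34 ± 0.22 (SE) for Bcl2a1a, 1.77 ± 0.20 for Bcl2a1b and 3.10 ± 0.23 for Bcl2a1d (limma, Benjamini-Hochberg adjusted p = 2.4e-06, 8.0e-05 and 3.6e-06). WT LPS exceeded WT M0 by 3.01 ± 0.18, 1.15 ± 0.17 and 2.37 ± 0.18 for the same copies in that order (limma, adjusted p = 7.5e-07, 0.00030 and 3.5e-06).

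The copies were unequal in size and in change. Of the summed Bcl2a1 TPM, Bcl2a1b held 57.1% ± 0.908 in KO LPS and 56.8% ± 2.36 in WT LPS, against 78.3% in KO M0 and 78.4% ± 0.159 in WT M0 (SD, n = 2, and 1 library for KO M0). Bcl2a1a held 15.1% ± 0.556 in KO LPS, 16.8% ± 1.06 in WT LPS, 6.75% in KO M0 and 6.16% ± 0.140 in WT M0. The shares of LPS and M0 libraries did not overlap, while those of the genotypes in the same state lay close together. The summed TPM of the 3 copies is free of how reads were split among them. It is not free of whether shared reads were dropped or counted for several copies. The sum was 1358 and 1558 in KO LPS, 1194 and 1082 in WT LPS, 310 in KO M0, and 421 and 325 in WT M0. Fitted as 1 gene, the sum rose by 2.23 ± 0.21 in KO LPS over KO M0 and by 1.62 ± 0.17 in WT LPS over WT M0 (limma, adjusted p = 2.0e-05 and 3.4e-05).

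Bcl2l1 and Mcl1, the other pro-survival genes, did not follow Bcl2a1. Bcl2l1 (chr2:152758732-152833803, 5.283 Mb from Tgm2 at chr2:158116405-158146392) encodes Bcl-xL and was at 53.6 and 38.1 TPM in KO LPS, 42.8 and 30.7 TPM in WT LPS, 76.3 TPM in KO M0, and 78.9 and 83.8 TPM in WT M0. All 4 LPS libraries were below all 3 M0 libraries, and the 2 genotypes overlapped under LPS. It fell by 1.14 ± 0.21 in WT LPS relative to WT M0 (limma, adjusted p = 0.00146). The fall of 0.74 ± 0.26 in KO LPS relative to KO M0 was near the threshold (limma, adjusted p = 0.0449) and was lost with either other scaling, pseudocount 0.1 or no filter (adjusted p up to 0.220). Leaving out KO LPS replicate 2, WT M0 replicate 1 or WT M0 replicate 2 also ended it (0.198, 0.0668 and 0.0649), as did a fit of the 2 groups alone (0.0606) and the replicate block (0.0566). Mcl1 (chr3:95656944-95663179), a short-lived protein that neutralizes Bim and Noxa, was at 603 and 612 TPM in KO LPS, 743 and 655 TPM in WT LPS, 832 TPM in KO M0, and 639 and 819 TPM in WT M0. It passed no comparison: KO LPS minus KO M0 was -0.45 ± 0.20 (limma, adjusted p = 0.107), and WT LPS minus WT M0 was -0.05 ± 0.17 (adjusted p = 0.825), which became 0.19 with median-ratio scaling.

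The make-up of the pro-survival transcripts therefore differed between states. Among the summed TPM of Bcl2a1, Mcl1, Bcl2l1, Bcl2 and Bcl2l2, the Bcl2a1 copies held 65.9% and 69.3% in KO LPS, 59.1% and 59.9% in WT LPS, 25.0% in KO M0, and 36.3% and 26.0% in WT M0. Mcl1 held 29.3% and 27.2% in KO LPS, 36.8% and 36.3% in WT LPS, 67.3% in KO M0, and 55.1% and 65.7% in WT M0. As deposited, Mcl1 was the larger part in every M0 library and Bcl2a1 in every LPS library. How reads shared by the Bcl2a1 copies were counted is unknown. If they were counted for several copies, the Bcl2a1 part is too large, and its order with Mcl1 under LPS is not settled here. By mean level among all genes, Bcl2a1b ranked 173 in KO LPS and 242 in WT LPS, and Mcl1 ranked 172 in KO M0 and 204 in WT M0. Under LPS the Bcl2a1 share was higher in both KO libraries than in both WT libraries, but 2 libraries against 2 cannot give an exact permutation p below 0.333.

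**Figure D2:**
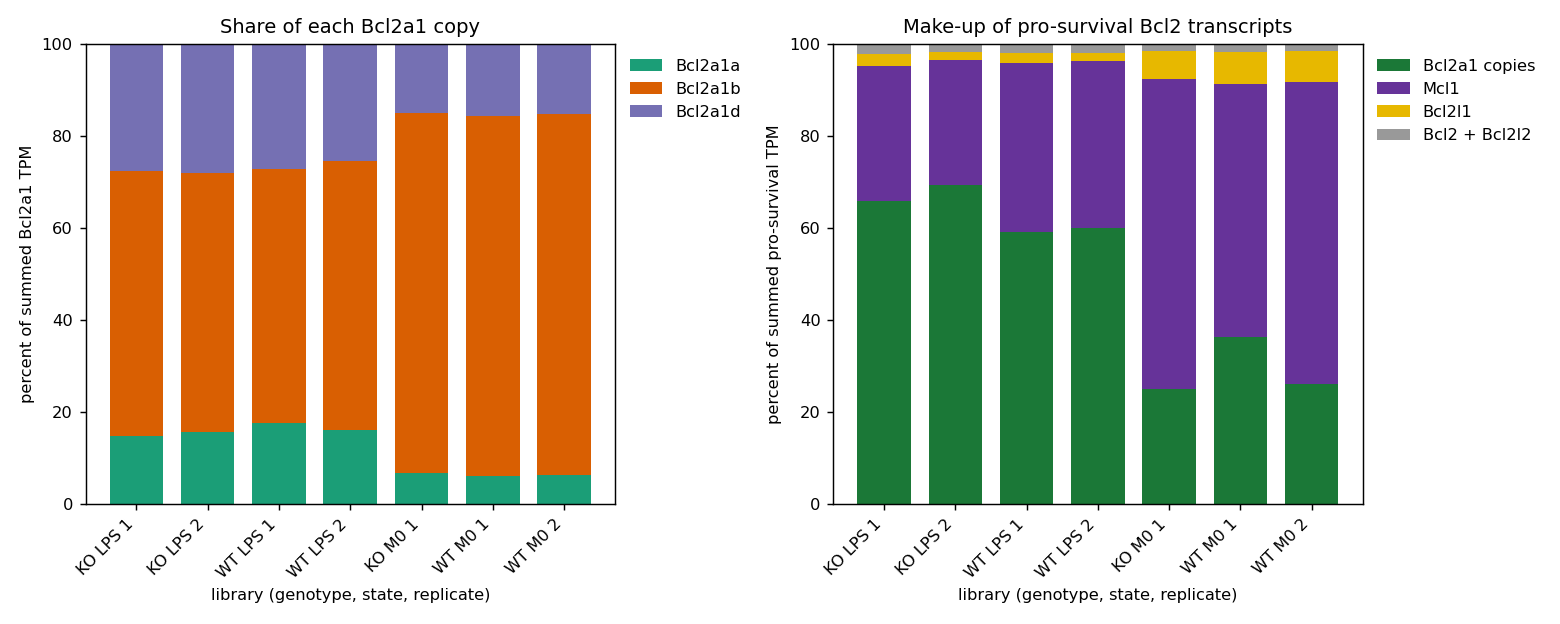
Percent of the summed Bcl2a1 TPM taken by each copy (left) and percent of the summed pro-survival TPM taken by the Bcl2a1 copies, Mcl1, Bcl2l1, and Bcl2 with Bcl2l2 (right), 1 bar per library. The Bcl2a1 part of the right panel is 59.1% to 69.3% in the LPS libraries and 25.0% to 36.3% in the M0 libraries. Its size depends on how reads shared by the copies were counted, which is unknown.

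Among the BH3-only genes, Bcl2l11 fell under LPS in both genotypes and was lowest in KO LPS. Bcl2l11 (chr2:128126038-128162547, 29.95 Mb from Tgm2) encodes Bim, a BH3-only protein that binds all pro-survival members. It was at 26.0 and 23.2 TPM in KO LPS, 39.8 and 49.0 TPM in WT LPS, 83.0 TPM in KO M0, and 60.5 and 84.9 TPM in WT M0. Both KO LPS libraries were below both WT LPS libraries, which were below all M0 libraries, and the KO M0 library lay within the WT M0 range. The group means were 24.6 ± 1.96 TPM in KO LPS, 44.4 ± 6.54 TPM in WT LPS and 72.7 ± 17.2 TPM in WT M0 (SD, n = 2 each). It fell by 1.72 ± 0.25 in KO LPS relative to KO M0 (limma, adjusted p = 0.00034) and by 0.69 ± 0.20 in WT LPS relative to WT M0 (limma, adjusted p = 0.0178). Median-ratio scaling ended the WT call (adjusted p = 0.0628), as did fits with no filter on low values (0.0647), without WT M0 replicate 2 (0.133) and without WT LPS replicate 1 (0.136). FoxO factors are known to induce Bcl2l11, and 1 of its 2 promoter windows holds the forkhead letters GTAAACA (in 3.65% of windows), shown in capitals in the 250 bases before its start (chr2:128125788-128126037, plus strand, GRCm38.p6):
Bcl2l11: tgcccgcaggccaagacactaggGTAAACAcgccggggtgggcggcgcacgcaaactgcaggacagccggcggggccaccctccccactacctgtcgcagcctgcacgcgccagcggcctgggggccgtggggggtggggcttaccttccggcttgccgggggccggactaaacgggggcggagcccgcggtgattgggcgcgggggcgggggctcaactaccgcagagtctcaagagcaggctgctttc
Foxo1, which encodes a FoxO factor, fell by 1.02 ± 0.28 in KO LPS relative to KO M0 and by 0.77 ± 0.23 in WT LPS relative to WT M0 (limma, adjusted p = 0.0148 and 0.0177). It was chosen after its values were seen, and both calls were lost with no filter on low values (0.0605 and 0.0641). The KO call was also lost without KO LPS replicate 2 (0.0537), and the WT call without WT M0 replicate 2 (0.142), without WT LPS replicate 1 (0.0941) and with quantile normalization (0.0913). Foxo1 did not pass in KO LPS against WT LPS (-0.17 ± 0.23, adjusted p = 0.752). Foxo3, the other FoxO gene listed, was -0.35 ± 0.24 in KO LPS against KO M0 and -0.34 ± 0.19 in WT LPS against WT M0 and did not pass (adjusted p = 0.276 and 0.177). The forkhead letters also occur in a window of Bbc3, which passed no comparison. Whether FoxO factors had a part in the Bcl2l11 values was not tested.

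Pmaip1, which encodes the Mcl1-binding protein Noxa, lies on chromosome 18 and was at 4.39 and 5.10 TPM in KO LPS, 3.64 and 4.13 TPM in WT LPS, 17.1 TPM in KO M0, and 16.7 and 18.1 TPM in WT M0. The LPS and M0 libraries were far apart. It fell by 1.66 ± 0.24 in KO LPS relative to KO M0 and by 1.92 ± 0.19 in WT LPS relative to WT M0 (limma, adjusted p = 0.00033 and 2.2e-05). Bbc3 (chr7:16308398-16318334) encodes Puma, a p53 target, and was at 13.6 and 5.64 TPM in KO LPS, 7.56 and 6.37 TPM in WT LPS, 8.61 TPM in KO M0, and 10.5 and 7.98 TPM in WT M0. KO LPS replicate 1 was the highest of all libraries and KO LPS replicate 2 the lowest, so the spread within that group spans all the others. Bbc3 passed no comparison. The summed TPM of Bcl2l11, Pmaip1 and Bbc3 was 44.0 and 34.0 in KO LPS, 51.0 and 59.5 in WT LPS, 109 in KO M0, and 87.7 and 111 in WT M0.

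The caspase regulators Cflar and Birc3 rose under LPS in both genotypes. Cflar (chr1:58711311-58758884) encodes c-FLIP, which blocks caspase-8, and was at 365 and 413 TPM in KO LPS, 327 and 302 TPM in WT LPS, 126 TPM in KO M0, and 109 and 122 TPM in WT M0. It rose by 1.61 ± 0.19 in KO LPS over KO M0 and by 1.44 ± 0.15 in WT LPS over WT M0 (limma, adjusted p = 8.3e-05 and 3.3e-05). Birc3 (chr9:7847468-7873205, 10.3 kb from its paralog Birc2) encodes cIAP2 and was at 290 and 312 TPM in KO LPS, 296 and 311 TPM in WT LPS, 187 TPM in KO M0, and 160 and 185 TPM in WT M0. Its LPS libraries overlapped between genotypes and stood above all M0 libraries. It rose by 0.68 ± 0.18 in KO LPS over KO M0 and by 0.82 ± 0.15 in WT LPS over WT M0 (limma, adjusted p = 0.0144 and 0.00142). The KO call was lost with quantile normalization (adjusted p = 0.0646) and without KO LPS replicate 2 (adjusted p = 0.0503).

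Counted together, 5 of the 10 genes were higher and 3 lower in KO LPS than in KO M0. The background was 38.1% of the 11096 genes tested, 13.8% higher and 24.3% lower. In WT LPS against WT M0, 5 were higher and 3 lower, beside a background of 44.6%, 15% higher and 29.6% lower. The 5 higher genes include the 3 Bcl2a1 copies in both comparisons. The copies are near-identical and share reads to an unknown extent, so they are not separate genes beside these backgrounds. They also enter singly in the counts and medians of the 10 genes below. The groups did not overlap for 9 of 10 genes in each comparison, where the background was 87.7% in KO and 73.5% in WT. The median log2 fold change of the 10 genes was 0.36 in KO and 0.38 in WT, against -0.24 and -0.21 over all genes. Median-ratio scaling moved these medians of all genes to -0.01 and 0.01. The medians of the 10 genes are given without that scaling and stand only beside -0.24 and -0.21. The split of all calls in KO LPS against KO M0 was 1533 higher and 2700 lower, and 2110 and 1849 with that scaling. In WT LPS against WT M0 it was 1665 and 3284, and 2485 and 2289 with that scaling.

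Between genotypes under LPS (KO LPS against WT LPS), Bcl2l11 was the only one of the 10 genes that passed the test. It was lower in KO LPS by a log2 fold change of -0.82 ± 0.20 (95% interval -1.27 to -0.38, limma, adjusted p = 0.0349), a ratio of 0.566 on the TPM + 1 scale. That 1 of 10 genes was called stands beside a background of 7.16% of all genes, 4.59% higher and 2.58% lower. The call was close to the threshold. In limma, the adjusted p was 0.0781 with KO LPS replicate 1 left out and 0.183 with KO LPS replicate 2 left out. It was 0.0596 with WT LPS replicate 1 left out and 0.250 with WT LPS replicate 2 left out, and over these the log2 fold change lay between -0.97 and -0.67. The call was also lost with no filter on low values (limma, adjusted p = 0.154).

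The other 9 genes did not pass in KO LPS against WT LPS, and their intervals give the differences that remain possible. Bcl2a1d was 0.43 (95% interval 0.02 to 0.84, limma, adjusted p = 0.224) and Bcl2a1b 0.36 (interval -0.01 to 0.73, adjusted p = 0.262). The sum of the 3 copies was 0.36 (interval -0.03 to 0.74, adjusted p = 0.288). Both KO LPS libraries were above both WT LPS libraries for Bcl2a1b, Bcl2a1d, Pmaip1 and Cflar and below them for Mcl1 and Bcl2l11, so 6 of 10 genes had groups that did not overlap, beside a background of 49.7%. Cflar was 0.30 (interval -0.03 to 0.64, adjusted p = 0.311), Mcl1 -0.20 (interval -0.57 to 0.17, adjusted p = 0.581) and Birc3 -0.01 (interval -0.35 to 0.32, adjusted p = 0.983). The least certain was Bbc3, at 0.31 ± 0.32. The median of the 10 genes was 0.27, against 0.03 over all genes.

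Without LPS, none of the 10 genes passed between KO M0 and WT M0 (limma, 0 at an unadjusted p under 0.05). Of all genes, 0.00901% passed, which was Tgm2 alone and lower, with 0% higher, and 154 genes had an unadjusted p under 0.05. KO M0 is a single library whose spread is borrowed from the other groups. The log2 differences ran from -0.30 (Bcl2a1d) to 0.21 (Bcl2l11), and groups did not overlap for 6 of 10 genes, beside 60.3% of all genes. WT M0 replicate 1 lay farther from WT M0 replicate 2 (median absolute log2 difference 0.221) than KO M0 did (0.0959). Without WT M0 replicate 1, the differences of Bcl2a1a, Bcl2l11 and Bbc3 changed sign to 0.04, -0.03 and 0.10.

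The difference between the LPS responses (KO LPS change minus WT LPS change) passed for none of the 10 genes, beside 1.37% of all genes, 0.847% higher and 0.523% lower. Bcl2l11 was at -1.03 ± 0.32 (unadjusted p = 0.00837, limma, adjusted p = 0.205), Bcl2a1d at 0.73 ± 0.29 (adjusted p = 0.385) and Bcl2a1b at 0.62 ± 0.26 (adjusted p = 0.430). These 3 were the genes at an unadjusted p under 0.05. The larger fall of Bcl2l11 and larger rises of those copies in KO are therefore not separated from the WT responses after adjustment.

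**Figure D3:**
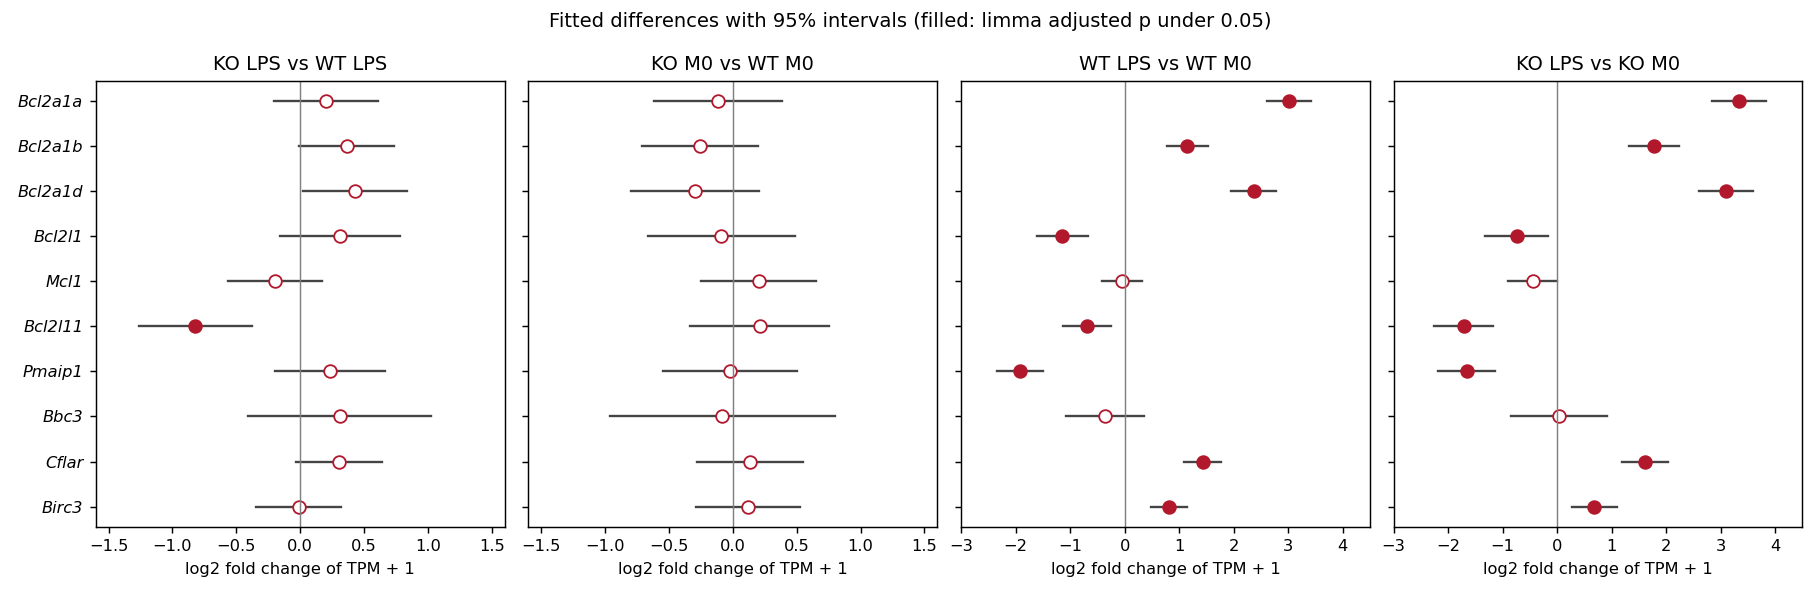
Log2 fold change of TPM + 1 with 95% intervals for the 10 genes in the 4 comparisons between groups, filled where the limma adjusted p is under 0.05. In KO LPS against WT LPS only Bcl2l11 is filled, at -0.82.

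The genes around these 10 were described through 11 lists holding 72 genes, of which 63 were tested. In KO LPS against WT LPS, 8 were higher and 3 lower, beside the background of 7.16%. In KO LPS against KO M0, 18 were higher and 5 lower, and in WT LPS against WT M0 17 and 9. Taken over both directions, these 23 and 26 of 63 genes stand beside backgrounds of 38.1% and 44.6%, so neither total is above those shares. By direction, the background was 13.8% higher and 24.3% lower in KO, and 15% higher and 29.6% lower in WT. The lists thus had more higher than lower calls, while all genes had the reverse without further scaling. None passed in KO M0 against WT M0. In KO LPS against WT LPS the median log2 fold change was -0.70 over the 6 genes of the list labelled FoxO and stress inducers of BH3-only genes. The FoxO genes did not share it, with Foxo1 at -0.17 and Foxo3 at 0.19. The stress genes were at -0.99 (Atf4), -1.06 (Trib3), -1.10 (Chac1) and -0.41 (Ddit3). Whether any of these acted on BH3-only genes here was not tested. The median was -0.28 over 3 other BH3-only genes. It was 0.43 over 9 NF-kappaB survival targets, 0.39 over 7 other IAPs, and between 0.06 and 0.28 in the other 7 lists, against 0.03 over all genes. Among other BH3-only genes, 1 of 3 was lower: Bmf, which like Bim is a BH3-only protein, was at 0.393 and 0.557 TPM in KO LPS, 2.07 and 2.16 TPM in WT LPS, 6.48 TPM in KO M0, and 5.61 and 6.94 TPM in WT M0. It had the same order of groups as Bcl2l11, with a log2 fold change of -1.08 ± 0.21 (limma, adjusted p = 0.0128) in KO LPS against WT LPS, -2.34 ± 0.26 in KO LPS against KO M0 and -1.22 ± 0.21 in WT LPS against WT M0 (adjusted p = 6.5e-05 and 0.00107). Its call between genotypes under LPS was lost with no filter and without KO LPS replicate 1 or 2 or WT LPS replicate 2, with adjusted p up to 0.0747.

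Among the remaining lists, other IAPs had 1 of 7 higher: Birc5, which encodes survivin, was at 30.8 and 38.9 TPM in KO LPS, 4.54 and 6.48 TPM in WT LPS, 3.98 TPM in KO M0, and 4.13 and 3.92 TPM in WT M0. NF-kappaB survival targets had 2 of 9 higher. Tnfaip8, an apoptosis regulator of the TIPE family, was at 95.1 and 100.4 TPM in KO LPS against 41.4 and 43.5 TPM in WT LPS, and Nfkb1, the p105 precursor of NF-kappaB p50, was at 357 and 361 TPM against 254 and 229 TPM. From M0 to LPS, Tnfaip8 changed by 0.95 ± 0.21 in KO and by -0.29 ± 0.17 in WT. Nfkb1 changed by -0.06 ± 0.18 in KO and by -0.56 ± 0.15 in WT. In necroptosis, 1 of 4 was higher: Ripk3, the kinase that phosphorylates the pore former MLKL, was at 15.1 and 14.6 TPM in KO LPS, 5.17 and 6.19 TPM in WT LPS, 13.0 TPM in KO M0, and 11.9 and 11.8 TPM in WT M0. It fell by 0.95 ± 0.19 in WT LPS relative to WT M0 and was 0.18 ± 0.23 in KO LPS over KO M0 (limma, adjusted p = 0.00207 and 0.574). The log2 fold changes of KO LPS over WT LPS were 2.47 ± 0.22 for Birc5, 1.19 for Tnfaip8, 0.57 for Nfkb1 and 1.25 ± 0.19 for Ripk3 (limma, adjusted p = 0.000159, 0.00198, 0.0450 and 0.00256). Those of Birc5, Tnfaip8 and Ripk3 passed under every alternative tried, while that of Nfkb1 was lost under 11 of 16. These were the omission of any 1 LPS or WT M0 library, both other scalings, no filter, a mean of at least 5 TPM and the 0.01 threshold (adjusted p up to 0.326).

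Death receptor signalling had 1 of 8 higher and the apoptosome and caspases 1 of 10. Tnfsf10, which encodes the death ligand TRAIL, was at 30.0 and 40.0 TPM in KO LPS, 16.3 and 8.26 TPM in WT LPS, 1.27 TPM in KO M0, and 1.12 and 0.946 TPM in WT M0, a difference of 1.49 between genotypes under LPS (limma, adjusted p = 0.0110). Apaf1, the apoptosome scaffold, was at 39.6 and 44.3 TPM in KO LPS against 23.1 and 25.3 TPM in WT LPS, a difference of 0.77 (adjusted p = 0.0394). Of the p53 targets, 2 of 9 were higher, Phlda3 by 1.36 (limma, adjusted p = 0.0144) and Cdkn1a, which encodes p21, by 0.85 (adjusted p = 0.0404). Phlda3 was at 5.90 and 3.67 TPM in KO LPS against 0.988 and 1.45 TPM in WT LPS. Without LPS it was at 4.46 TPM in KO M0, and 5.62 and 3.41 TPM in WT M0. From M0 to LPS, Phlda3 changed by 0.06 ± 0.34 in KO and by -1.29 ± 0.28 in WT. Cdkn1a changed by 1.17 ± 0.26 in KO and 0.30 ± 0.22 in WT, and Apaf1 by 0.48 ± 0.24 and 0.05 ± 0.19. The list labelled FoxO and stress inducers of BH3-only genes had 2 of 6 lower, neither of them a FoxO gene. Trib3 was at 4.32 and 3.56 TPM in KO LPS against 10.1 and 8.43 TPM in WT LPS (-1.06, limma, adjusted p = 0.0345), and Atf4, a factor of the integrated stress response, at 255 and 158 TPM against 432 and 369 TPM (-0.99, adjusted p = 0.0200). From M0 to LPS, Trib3 changed by 0.57 ± 0.32 in KO and by 1.56 ± 0.26 in WT. Atf4 changed by -0.25 ± 0.26 in KO and by 0.73 ± 0.21 in WT. The 6 calls of KO LPS against WT LPS in this paragraph were all lost with no filter on low values. Leaving out LPS libraries 1 at a time ended those of Apaf1 and Trib3 in all 4 cases (adjusted p up to 0.222 and 0.200), that of Cdkn1a without KO LPS replicate 1 or 2 or WT LPS replicate 2 (up to 0.339) and that of Atf4 without KO LPS replicate 2 or WT LPS replicate 1 or 2 (up to 0.119). The call of Tnfsf10 was lost without KO LPS replicate 2 (0.0949) or WT LPS replicate 2 (0.0659), and that of Phlda3 without KO LPS replicate 1 (0.0972) or WT LPS replicate 1 (0.0719). The Cdkn1a call was also lost with either M0 library of WT left out (0.0686 and 0.0656), with median-ratio scaling (0.118), quantile normalization (0.0710) and the compared groups alone (0.0555). The Trib3 call was also lost with median-ratio scaling (0.0547) and pseudocount 0.1 (0.0643), and none of the 6 calls met a threshold of 0.01.

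The pore formers did not pass: Bak1 was 0.72 ± 0.28 and Bax 0.17 ± 0.24 in KO LPS over KO M0 (limma, adjusted p = 0.0638 and 0.608). Bak1 passed there with median-ratio scaling (0.97, adjusted p = 0.0448), without KO LPS replicate 2 (1.05, adjusted p = 0.0109) and with a replicate block (0.92, adjusted p = 0.0053). Bcl2l2, which encodes the pro-survival Bcl-w, rose by 1.26 ± 0.21 in KO LPS over KO M0 and by 0.94 ± 0.17 in WT LPS over WT M0 (adjusted p = 0.00087 and 0.00122), while Bcl2 was -0.24 ± 0.27 in KO LPS against KO M0 (adjusted p = 0.506) at 0.941 to 1.91 TPM in all 7 libraries. In the turnover list Huwe1, a ubiquitin ligase for Mcl1, and Usp9x, its deubiquitinase, were -0.33 and 0.19 in KO LPS against KO M0 and did not pass (adjusted p = 0.271 and 0.656). Huwe1 fell by 0.50 ± 0.18 in WT LPS relative to WT M0 (limma, adjusted p = 0.0477), and Usp9x was 0.17 ± 0.25 there (adjusted p = 0.605). That Huwe1 call was lost under both other scalings, with no filter, with the compared groups alone, at a threshold of 0.01 and without WT M0 replicate 2 or any 1 LPS library (adjusted p up to 0.251). Mlkl, which encodes the necroptotic pore former and was chosen after its values were seen, rose by 3.31 ± 0.28 in KO LPS over KO M0 and by 2.82 ± 0.23 in WT LPS over WT M0 (limma, adjusted p = 8.5e-06 and 4.4e-06).

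**Figure D4:**
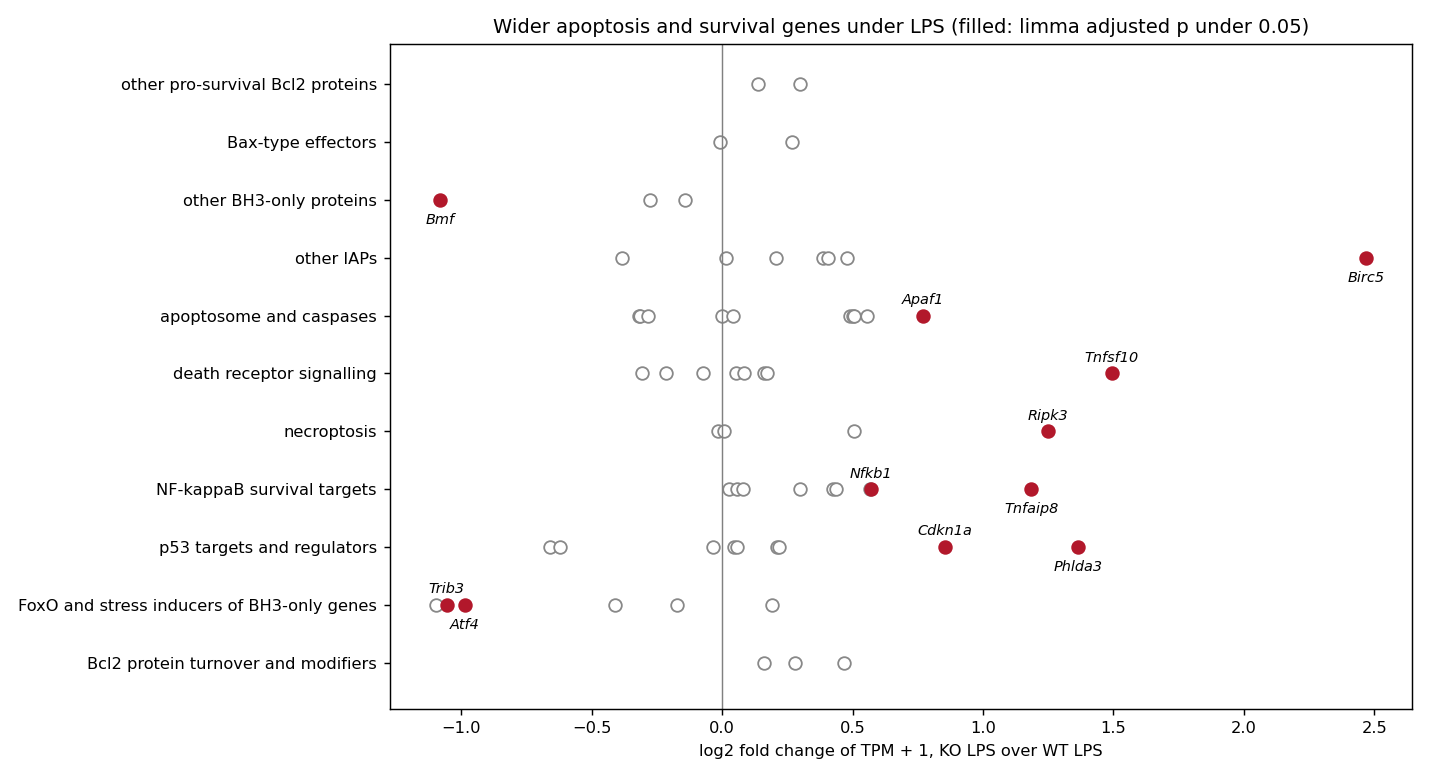
Log2 fold change of TPM + 1, KO LPS over WT LPS, for the tested genes of the 11 lists (1 row per list), filled where the limma adjusted p is under 0.05. Birc5, at 2.47, lies farthest to the right, and Bmf, at -1.08, is the lowest filled point.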

How the data were processed

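Values are TPM per gene, as deposited by the authors in 1 table per library (the submitters' processing notes name build mm10). No source used here gives the aligner, annotation or read length, and depth is unknown, since TPM keeps none. Log2(TPM + 1) was fitted in limma 3.58.1 (R 4.3.3, trended empirical Bayes) with 4 group means over all 7 libraries (3 residual and 7.3 prior degrees of freedom), for the 11096 of 23337 genes with a mean of at least 1 TPM. P-values were adjusted by Benjamini-Hochberg over all of them, with a threshold of 0.05, in 5 comparisons. The script was tested on simulated data. The 10 genes and the 11 lists were chosen with earlier results of these data known. From each list, up to 4 genes that passed in KO LPS against WT LPS were named, or else 2 with the smallest p in KO LPS against KO M0, and for each of the 10 genes the 2 with the most alike pattern. Transcripts and coding sequences (GENCODE) were aligned in pairs with Biopython 1.88. The stretches before the start sites of the Bcl2a1 copies were aligned with MAFFT 7.526. Promoter windows are RefSeq's (9 of the 10 genes matched). Scaling, pseudocount, filter, threshold, left-out libraries, the groups in the fit and a replicate block were varied.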

Additional observations from a re-analysis of the deposited data

Results flagged for a closer look

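The difference between the LPS responses of KO and WT passed the test for Birc5 (survivin, an IAP family member that also acts in mitosis), which marked it for a closer look: the KO response exceeded the WT response by 2.48 ± 0.35 on the log2(TPM + 1) scale (limma, adjusted p = 0.0101). Birc5 rose by 2.84 ± 0.27 in KO LPS over KO M0 and was 0.36 ± 0.22 in WT LPS over WT M0 (adjusted p = 2.0e-05 and 0.209). Over the alternatives the difference ran from 2.26 to 2.70, with adjusted p from 0.00788 to 0.117, and 3 of them ended the call: fitting all genes without a low-value filter (0.117), leaving out WT M0 replicate 1 (0.0853) and a threshold of 0.01. It rests on the single KO M0 library and on the libraries labelled WT LPS, whose Xist level goes against their label, and the part of these in the value was not tested.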

How the results depend on the processing

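With TPM the depth is unknown, 3 of the 4 groups hold 2 libraries and KO M0 holds 1. The count of the 10 genes called in KO LPS against WT LPS (1) was 0 with no filter on low values and 0 at an adjusted p of 0.01, and 0 to 1 when a library was left out. Leaving out a library gave 7 to 8 in WT LPS against WT M0, 6 to 8 in KO LPS against KO M0, and 0 in the other comparisons. Of the listed genes, 11 were called in KO LPS against WT LPS, 3 with no filter, 7 with a mean of at least 5 TPM, 3 at an adjusted p of 0.01 and 4 to 11 with a library left out. The interaction count (1) was 2 with median-ratio scaling, 0 with no filter, 0 at an adjusted p of 0.01 and 0 to 1 with a library left out.

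Differences that changed sign had not passed the test. With single libraries left out, KO LPS against WT LPS ran from -0.26 to 0.88 for Bbc3 and from -0.064 to 0.041 for Birc3. KO M0 against WT M0 ran from -0.28 to 0.040 for Bcl2a1a, -0.031 to 0.45 for Bcl2l11, -0.26 to 0.098 for Bbc3 and -0.077 to 0.032 for Pmaip1. Mcl1 ran from -0.23 to 0.13 in WT LPS against WT M0, and was 0.19 with median-ratio scaling. KO LPS against KO M0 ran from -0.53 to 0.60 for Bbc3, -0.081 to 0.42 for Bax and -0.0084 to 0.38 for Usp9x, and the Bbc3 interaction from -0.18 to 0.96. Quantile normalization gave 0.0077 for Bcl2 and -0.0027 for Bax in KO LPS against KO M0. The cause was not tested.

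Replicates of the same number deviated together with r of 0.18, 0.30 and 0.08 for the 3 pairs of groups, so the numbers were not taken as pairs. With a replicate block, 1 of the 10 genes was called in KO LPS against WT LPS, 8 in WT LPS against WT M0, and 7 in KO LPS against KO M0, where Bcl2l1 was lost (adjusted p = 0.0566). In that fit the listed genes had 2 interaction calls, Pmaip1 was 0.050 in KO M0 against WT M0 and Usp9x -0.035 in KO LPS against KO M0. Among all values of the 10 genes under alternatives, 728 kept direction and call, 24 lost the call and 13 changed sign. Many of the 728 could not have changed sign. The filter, the threshold and leaving out a library of neither compared group do not alter the fold change. KO M0 against WT M0 and the interaction had no call to lose. The tally is therefore no measure of robustness.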

Other observations

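The genes whose pattern over the 7 libraries lay closest to each of the 10 were found by the root mean square difference of centred log2(TPM + 1), a description in which all points share libraries. Only tested genes were searched, with predicted and Rik gene models left out. Bcl2l11 was closest to Elk3 (0.051) and Btg1 (0.094), and Pmaip1 to Cdc42ep3 (0.041) and Tnfsf12 (0.075). Bcl2a1a was closest to Xaf1 (0.079) and Irgm1 (0.091), Bcl2a1b to Sap30 (0.069) and Map3k8 (0.109), and Bcl2a1d to H2-T10 (0.150) and Sla (0.151). Cflar was closest to Lcp2 (0.043) and Arid3a (0.064), and Birc3 to Gopc (0.031) and Zfp407 (0.037). Bcl2l1 was closest to Cenpb (0.064) and Azi1 (0.106), Mcl1 to Ripk1 (0.065) and D19Ertd737e (0.066), and Bbc3 to Gtf2f1 (0.119) and Dazap1 (0.151).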
